A study of Mus musculus with 4 samples.

Results

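Serpina7 and 6 genes of the thyroid hormone pathway (Thra, Thrb, Slc16a10, Dio1, Dio2 and Thrsp) were followed in RNA from freshly isolated mouse pancreatic islets. They are 7 of the 55487 genes in the deposited table, found by gene name. Serpina7 was selected on its difference between the genotypes in these same libraries, where it holds row 1 of the authors' deposited table, so its genotype difference is given as a description. The other 6 genes were chosen by their place in the pathway, with earlier results of these data known. Of the 7 genes, 6 had a normalized count of at least 10 in at least 2 libraries and were tested, and Dio2 was not.

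The knockout group (2 libraries) came from C57BL/6 mice with the genotype Ggcx flox/flox; Pdx1-Cre, and the control group (2 libraries) from Ggcx flox/flox mice of the same strain, whose floxed Ggcx alleles are shared with the knockout and which carry no Cre. All mice were 30 weeks old, and each library is a pool made from 2 mice, which leaves n = 2 pools in either genotype. The control pools are named by their columns in the table, control column 2 and control column 3. Pdx1-Cre acts in the pancreatic lineage, and no library carried Cre without the floxed gene, so the effect of the transgene and that of losing Ggcx cannot be told apart. Values are read counts that the authors normalized to library size; a log2 fold change is the knockout mean of log2(value + 1) minus the control mean, given ± its standard error from limma.

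Thyroxine, the main product of the thyroid gland, travels in blood bound to carrier proteins, enters cells through membrane transporters, and is turned into the more active triiodothyronine by deiodinases, which are selenoproteins. Triiodothyronine binds the nuclear receptors encoded by Thra and Thrb, which sit on DNA with a retinoid X receptor and exchange corepressors for coactivators when hormone binds. In rat beta cells, thyroid hormone is known to promote postnatal maturation.

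The libraries held 47624630 to 51756221 reads assigned to genes. Ggcx, the targeted gene, stood at 234 and 643 normalized counts in knockout pools, against 3971 and 3981 in control pools. Islet hormone genes (Ins1, Ins2, Gcg, Sst, Ppy) summed to between 10384737 and 11309046 normalized counts in each library, and the labelled tissue is islets. Of 16589 tested genes, 0.621% were called in either direction at an adjusted p under 0.05, and 0.247% were called higher in knockout islets. The ranges of the genotypes did not overlap in 22.0% of tested genes with the knockout above and in 23.0% with the knockout below.

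Upstream stretches are printed to show what precedes the start of the 3 genes with the highest levels per kilobase of exon among the 7: Serpina7, which differed between the genotypes, and Slc16a10 and Dio1, which did not pass the test. They are RefSeq sequences on GRCm38.p6, read on the minus strand, and stop before the first annotated exon base. Capitals mark the TATA box TATAAA, searched on both strands and found only in the Serpina7 stretch of the 3.
Serpina7, chrX:139085237-139085486: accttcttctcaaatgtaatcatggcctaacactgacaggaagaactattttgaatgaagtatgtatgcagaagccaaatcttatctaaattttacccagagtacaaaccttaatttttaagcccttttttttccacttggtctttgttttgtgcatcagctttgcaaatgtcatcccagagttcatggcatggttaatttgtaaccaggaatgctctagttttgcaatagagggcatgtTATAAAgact
Slc16a10, chr10:40142259-40142504: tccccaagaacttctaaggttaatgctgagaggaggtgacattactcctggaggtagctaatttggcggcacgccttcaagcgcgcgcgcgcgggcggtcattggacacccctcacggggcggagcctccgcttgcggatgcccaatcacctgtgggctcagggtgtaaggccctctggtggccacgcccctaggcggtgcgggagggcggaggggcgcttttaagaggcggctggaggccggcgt
Dio1, chr4:107307170-107307418: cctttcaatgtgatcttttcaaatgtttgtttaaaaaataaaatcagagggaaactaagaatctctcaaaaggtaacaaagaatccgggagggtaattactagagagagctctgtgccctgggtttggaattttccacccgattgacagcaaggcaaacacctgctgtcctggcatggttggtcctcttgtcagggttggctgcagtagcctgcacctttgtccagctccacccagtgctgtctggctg

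RefSeq gives Serpina7 a pair of neighbouring start sites. From the downstream one, the TATA box begins 27 bases upstream, and from the other it begins 10 bases upstream. TATAAA was found in 12.4% of all 32851 promoter windows of 250 bases. The response half-site AGGTCA, to which thyroid hormone receptors bind, was found in none of these 3 stretches and in 14.0% of all windows. A match describes letters only, and says nothing of whether a factor was bound. The guanine and cytosine content was 36.0% for Serpina7, 65.0% for Slc16a10 and 46.6% for Dio1.

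Serpina7 (ENSMUSG00000031271; GRCm38 chromosome X, 139079257 to 139085236, minus strand) encodes thyroxine-binding globulin, a blood carrier of thyroid hormone made mainly by the liver, which belongs to the serpin family but does not inhibit proteases. It had 2961 and 2754 normalized counts in knockout pools, against 1390 and 1181 in control pools. The lower knockout pool lay well above the higher control pool, and the pools within each genotype lay close together. The log2 fold change was 1.16 ± 0.08 (95% interval 0.97 to 1.34), or 2.23-fold. It was the only one of the 6 tested genes called at an adjusted p under 0.05, from which nothing is read because the gene was chosen on this comparison. Of the 6, 2 had knockout values above all control values (Serpina7 and Thrsp), against 22.0% of all tested genes, and 4 had overlapping ranges. Leaving out each library in turn gave log2 fold changes between 1.04 and 1.27. Serpina7 is X-linked, and all pools carried Y-linked transcripts: Ddx3y had 4130 and 3919 normalized counts in knockout pools and 4358 and 4379 in control pools, while Xist stayed at or below 2.04.

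**Figure D1:**
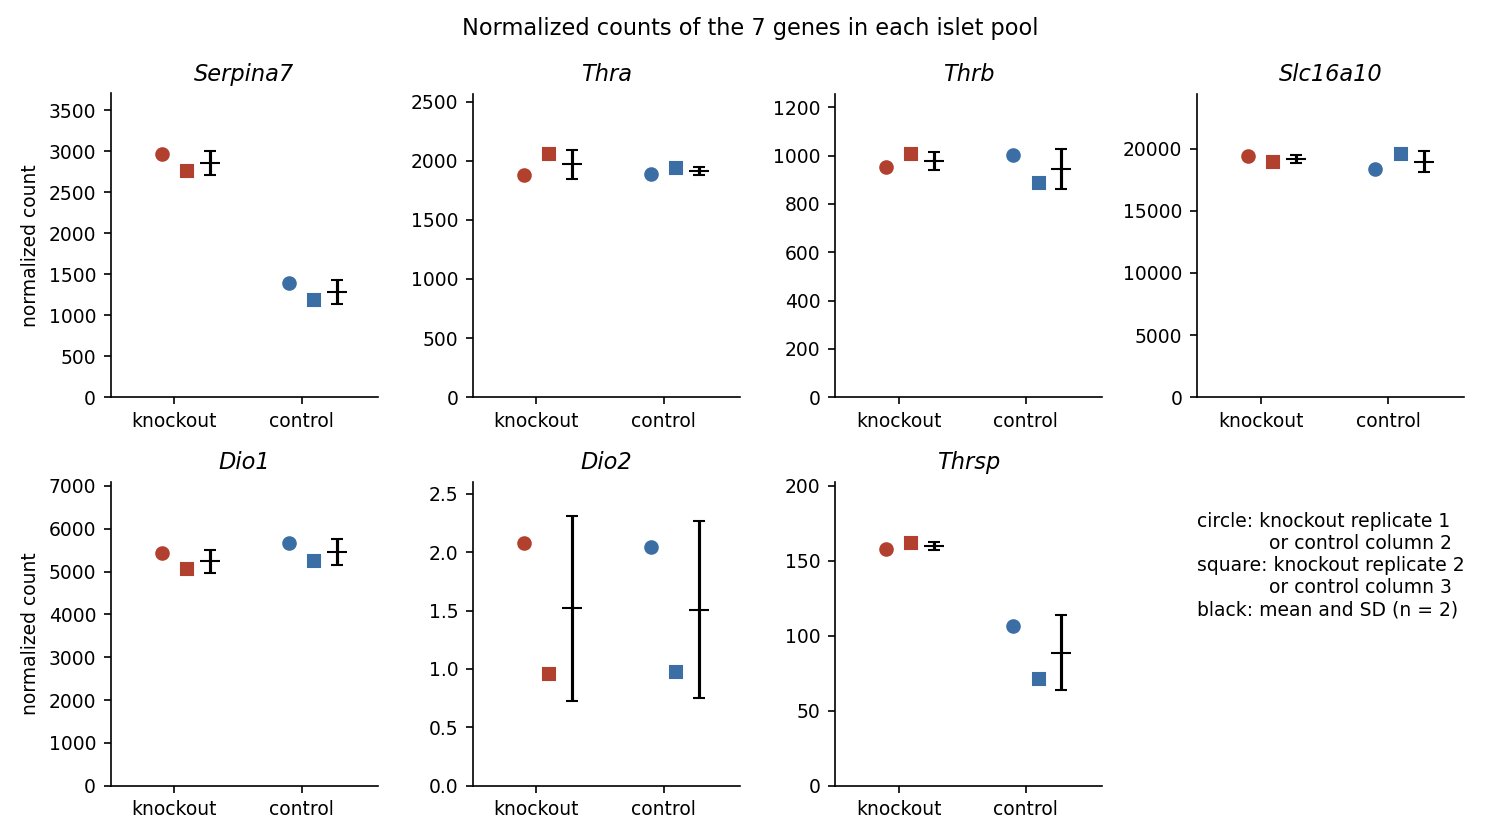
Normalized counts of Serpina7, Thra, Thrb, Slc16a10, Dio1, Dio2 and Thrsp in each islet pool, knockout in red on the left and control in blue on the right of each panel, with the mean and SD (n = 2) in black; each axis starts at 0 and has its own scale. Knockout and control pools are apart for Serpina7 and Thrsp and overlap for the other genes.

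Thrsp (ENSMUSG00000035686; chromosome 7, 97412938 to 97417730, minus strand) encodes Spot 14, a protein tied to fatty acid synthesis and named for its strong response to thyroid hormone in rat liver. Its normalized count was 158 and 162 in knockout pools, against 106 and 71.1 in control pools. Both knockout pools lay above both control pools, as in 22.0% of all tested genes, and the control pools differed from each other more than the knockout pools did. The mean was 160 ± 2.72 in knockout pools and 88.7 ± 24.9 in control pools (SD, n = 2 each), a log2 fold change of 0.87 ± 0.20 with a 95% interval of 0.42 to 1.33. That difference did not pass the test (limma adjusted p = 0.0905). Without control column 2 it was 1.16 and passed (limma adjusted p = 0.0215), and without control column 3 it was 0.59 and did not (limma adjusted p = 0.176).

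The receptors did not pass the test. Thra (ENSMUSG00000058756; chromosome 11, 98740638 to 98769006, plus strand), which encodes thyroid hormone receptor alpha, had 1883 and 2055 normalized counts in knockout pools, against 1891 and 1940 in control pools. The control values lay inside the knockout range. The log2 fold change was 0.04 ± 0.06, with a 95% interval of -0.10 to 0.18. Exons of Thra share 263 positions with those of Nr1d1, a clock gene that runs the other way, and whether reads were counted by strand is not stated in the labels. Nr1d1 had 7944 and 8786 normalized counts in knockout pools and 11721 and 10400 in control pools, a log2 fold change of -0.40 ± 0.07 that passed the test (limma adjusted p = 0.048). That call was lost without knockout replicate 1 (limma adjusted p = 0.0809) and without control column 2 (limma adjusted p = 0.0543). How many reads of either gene come from the shared positions was not tested. Thrb (ENSMUSG00000021779; chromosome 14, 17660261 to 18038090, plus strand), which encodes receptor beta, had 952 and 1006 in knockout pools and 1004 and 887 in control pools, and these ranges overlap. Its log2 fold change was 0.05 ± 0.08, with a 95% interval of -0.13 to 0.23.

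Slc16a10 (ENSMUSG00000019838; chromosome 10, 40033532 to 40142258, minus strand) encodes MCT10, a membrane transporter that carries triiodothyronine and aromatic amino acids. It had 19377 and 18946 normalized counts in knockout pools, against 18356 and 19540 in control pools, and the knockout values lay inside the control range. The log2 fold change was 0.02 ± 0.05, and its 95% interval of -0.10 to 0.13 leaves out changes of the size seen for Serpina7. Dio1 (ENSMUSG00000034785; chromosome 4, 107291465 to 107307169, minus strand), the type 1 deiodinase, had 5432 and 5051 in knockout pools and 5672 and 5246 in control pools, with overlapping ranges. Its log2 fold change was -0.06 ± 0.06, with a 95% interval of -0.19 to 0.07. Neither gene passed the test. Dio2 (ENSMUSG00000007682; chromosome 12, 90724552 to 90738438, minus strand), the type 2 deiodinase, was read 2 times and 1 time in the knockout libraries and 2 times and 1 time in the control libraries, which is under the floor of 3 reads in every library. A genotype difference in Dio2 was not detectable at this depth, and no fold is given.

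Per kilobase of exon (the union of a gene's annotated exons), Dio1 and Slc16a10 had the highest levels of the 7 genes, and Dio2 the lowest. Dio1 stood at 2661 ± 137 normalized counts per kilobase in knockout pools and 2771 ± 153 in control pools (SD, n = 2 each). Slc16a10 stood at 2605 ± 41.4 in knockout pools and 2576 ± 114 in control pools; the ranges of this pair overlapped in knockout pools and were separate in control pools, by a narrow margin. Serpina7 came next, at 1167 ± 59.8 per kilobase in knockout pools and 525 ± 60.3 in control pools. That level exceeded 91.2% of tested genes in knockout pools and 78.6% in control pools. Thra followed at 427 ± 26.4 in knockout pools and 415 ± 7.40 in control pools, with ranges separate from those of Serpina7 in both genotypes. Thrb had 132 ± 5.11 in knockout pools and 128 ± 11.2 in control pools, and Thrsp had 73.1 ± 1.24 in knockout pools and 40.5 ± 11.4 in control pools. The transcript of Dio1 was thus far more abundant per kilobase than that of Dio2, at 0.26 in each genotype.

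Part of that order depends on the length used. With the longest annotated transcript in place of the exon union, Slc16a10 lay above Dio1 in both genotypes. In knockout pools Serpina7 then stayed above Thra, at 1182 to 1271 against 768 to 838 normalized counts per kilobase. In control pools Thra lay above Serpina7, at 771 to 791 against 507 to 596 per kilobase.

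The rest of the pathway was described from lists fixed by role. None of the 43 tested genes of 56 listed passed the test at an adjusted p under 0.05 with limma, against 0.621% of all tested genes. At an unadjusted p under 0.05 there were 11 (2 higher and 9 lower), against 14.1% of all tested genes. On recovered reads, edgeR called 0 of them and DESeq2 called 3, which were Sepsecs, Gpd2 and Atp2a2, each lower. Over all genes given an adjusted p, edgeR called 0.772% and DESeq2 2.41%; 38 of the 43 had one from DESeq2. The median log2 fold change of the 43 was -0.02, beside 0.00 for all tested genes. Knockout pools lay above control pools for 6 of the 43 and below them for 14, against 22.0% and 23.0% of all tested genes, and the ranges overlapped for 23.

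**Figure D2:**
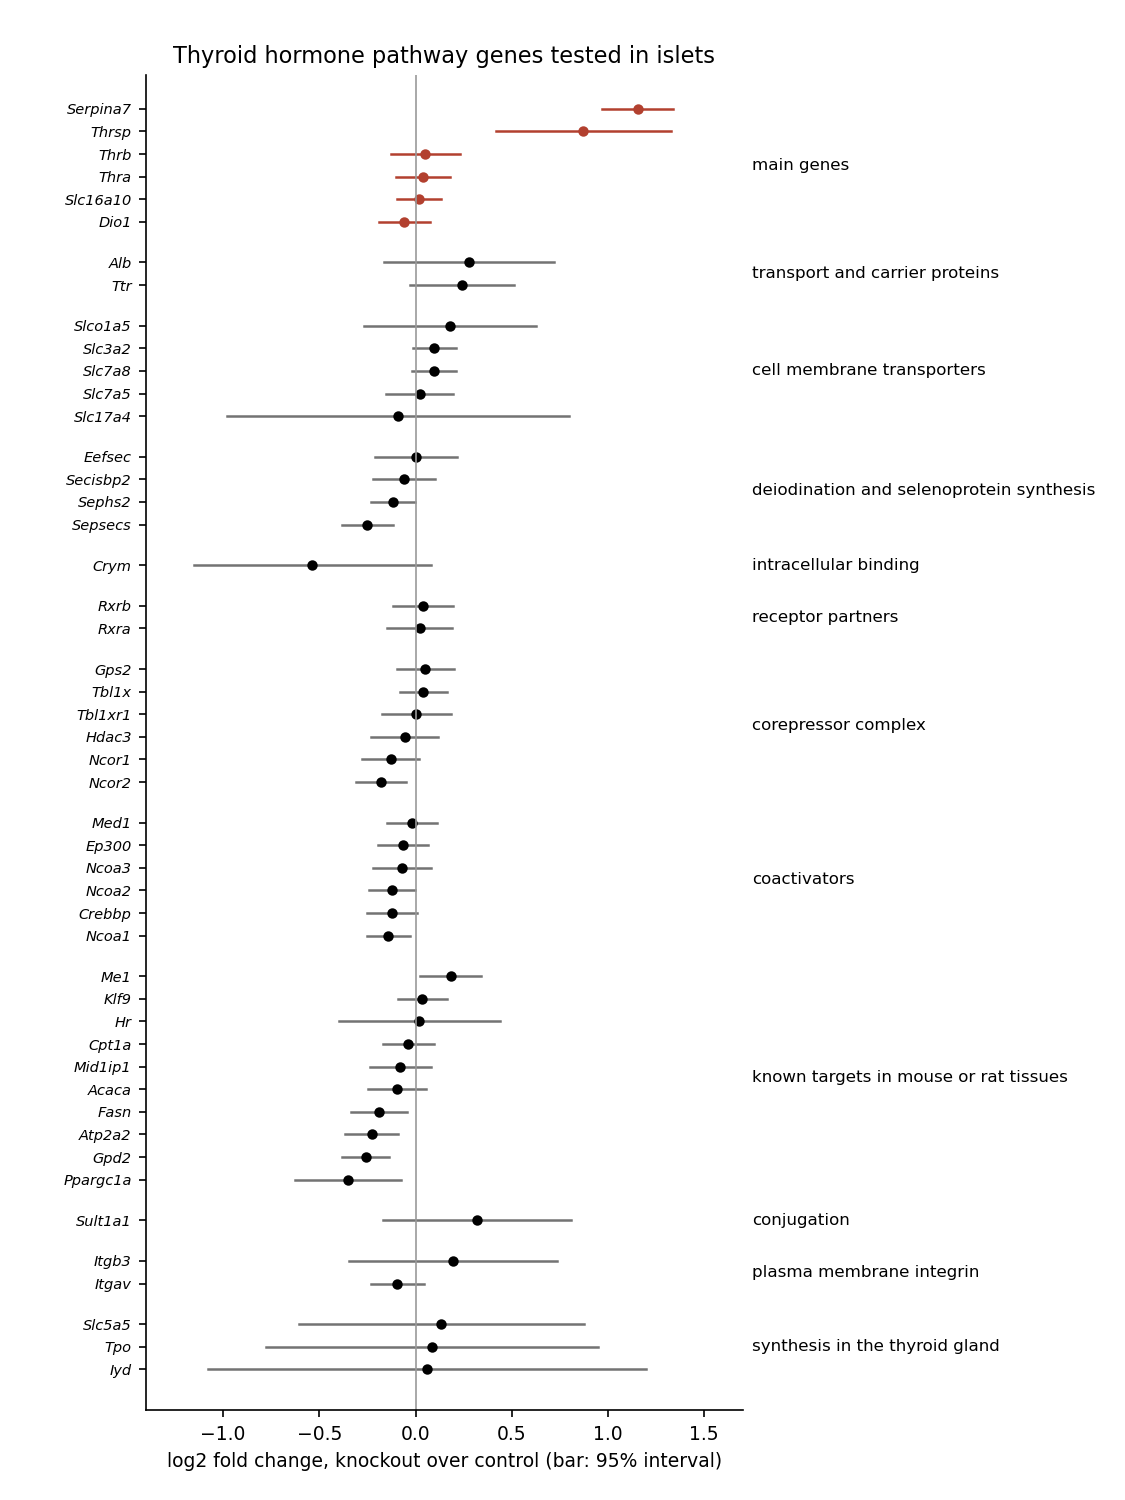
Log2 fold change, knockout over control, of tested thyroid hormone pathway genes, grouped by role; points are limma estimates and bars their 95% intervals, with the 6 tested main genes in red. Serpina7 at 1.16 and Thrsp at 0.87 lie right of all other genes plotted, the lowest of which is Crym at -0.54.

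Among blood carriers other than Serpina7, Ttr, which encodes transthyretin and is made in quantity by islet alpha cells, had 107843 and 87753 normalized counts in knockout pools and 73273 and 92455 in control pools. Its ranges overlap, with a log2 fold change of 0.24 ± 0.12 that did not pass the test (limma adjusted p = 0.421). Alb, the albumin gene, stood at 73.9 and 90.1 in knockout pools and 63.3 and 71.1 in control pools, with a log2 fold change of 0.28 ± 0.19 (limma adjusted p = 0.591).

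Of 8 listed membrane transporters 6 were tested and none passed. Slc7a5 and Slc3a2 encode the light and heavy chains of the LAT1 amino acid carrier, which also moves thyroid hormone, and had the highest levels per kilobase of the list. Their log2 fold changes were 0.02 ± 0.08 for Slc7a5 and 0.10 ± 0.05 for Slc3a2.

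Of 5 genes for deiodination and selenoprotein synthesis, 4 were tested and none passed. Dio3, the hormone-inactivating deiodinase, had at most 1 read in any library. Sepsecs, which makes selenocysteine on its transfer RNA, had 3649 and 3752 normalized counts in knockout pools and 4196 and 4615 in control pools. Knockout pools lay below control pools, with a log2 fold change of -0.25 ± 0.06 (limma adjusted p = 0.0947). Without control column 2 it was -0.32 and passed (limma adjusted p = 0.0321). Sephs2, which makes the selenium donor, stood at -0.12 ± 0.05. Crym, an intracellular thyroid hormone binder, was low, at 39.5 and 25.9 in knockout pools and 48.0 and 45.8 in control pools, with a log2 fold change of -0.54 ± 0.27 (limma adjusted p = 0.430).

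No receptor partner or cofactor passed the test. Rxra and Rxrb, retinoid X receptors, stood at 0.02 ± 0.07 and 0.04 ± 0.07 on the log2 scale, and Rxrg had at most 2 reads. All 6 corepressor complex genes were tested and none passed; Tbl1x stood at 0.04 ± 0.05 and Ncor1 at -0.13 ± 0.07. All 6 coactivator genes were tested and none passed, with log2 fold changes between -0.14 for Ncoa1 and -0.02 for Med1; Ep300 stood at -0.07 ± 0.06.

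Known targets in mouse or rat tissues gave no calls among 10 tested genes, and their median log2 fold change was -0.09. Atp2a2, the calcium pump SERCA2, had 70442 and 70831 normalized counts in knockout pools, against 79298 and 86303 in control pools. Knockout pools lay below control pools, with a log2 fold change of -0.23 ± 0.06 (limma adjusted p = 0.13). Mid1ip1, a relative of Thrsp, stood at -0.08 ± 0.07. Gpd2, the mitochondrial glycerol phosphate dehydrogenase, and Klf9, a transcription factor, were named after their values were seen. Gpd2 had 4596 and 4377 in knockout pools and 5536 and 5209 in control pools, a log2 fold change of -0.26 ± 0.05 (limma adjusted p = 0.0702), and Klf9 stood at 0.04 ± 0.06. Me1, the malic enzyme gene, also named after its values were seen, had 1043 and 1136 in knockout pools and 964 and 954 in control pools, a log2 fold change of 0.18 ± 0.07 (limma adjusted p = 0.290). Of the 10 targets, knockout pools lay above control pools for 1 (Me1), against 22.0% of all tested genes. Knockout pools lay below control pools for 5 (Atp2a2, Gpd2, Fasn, Acaca and Ppargc1a), against 23.0% of all tested genes. The ranges overlapped for 4. Fasn, Acaca and Ppargc1a, also named after their values were seen, stood at -0.19 ± 0.06, -0.10 ± 0.07 and -0.35 ± 0.12. At an unadjusted limma p under 0.05 there were 5 of the 10 targets (1 higher and 4 lower), against 14.1% of all tested genes.

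In the remaining roles no tested gene passed. Sult1a1, a sulfotransferase, stood at 0.32 ± 0.22, and Ugt1a1, a glucuronosyltransferase, had at most 1 read. The integrin genes Itgav and Itgb3 stood at -0.10 ± 0.06 and 0.19 ± 0.24. Of 11 genes of hormone synthesis in the thyroid gland, 8 did not reach the level needed for the test. Tg, the thyroglobulin gene, had 1 read in knockout replicate 1 and 0 in the other 3 libraries, and Nkx2-1 had 0 in all 4. The tested ones were low: Slc5a5, the iodide transporter, had 20 and 20 reads in knockout libraries and 15 and 22 in control libraries, and Iyd, which recycles iodide, had 14 and 10 in knockout libraries and 18 and 7 in control libraries.

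Of 29 clade A serpin genes in the table, 5 were tested. Serpina7 was the only one called, from which nothing is read because it was chosen on this comparison. Serpina10, which encodes an inhibitor that works with the vitamin K-dependent protein Z, was more abundant, at 8443 and 7749 normalized counts in knockout pools and 8440 and 8700 in control pools. Its ranges overlap, and its log2 fold change was -0.08 ± 0.05 (limma adjusted p = 0.561). Serpina1d, Serpina1b and Serpina3n, with means of at most 30.8 in either genotype, had log2 fold changes of 0.13 ± 0.30, 0.53 ± 0.41 and 0.84 ± 0.67. Serpina1d and Serpina1b are near-identical copies within the alpha-1 antitrypsin cluster, so their counts are uncertain.

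Likeness to Serpina7 was measured as the distance between log2(value + 1) profiles, each centred on its own mean over the 4 libraries, among 12367 genes with a mean of at least 50, predicted and clone-named genes left out. The nearest 6 were Scn2a, a sodium channel gene, at a distance of 0.17, Col5a2, a collagen chain, at 0.20, Slc7a3, a cationic amino acid transporter, at 0.22, Aebp1, an extracellular matrix protein, at 0.24, Cartpt, the CART peptide precursor, at 0.26, and Ccbe1, a matrix protein needed for lymphatic growth, at 0.30. Scn2a had 113 and 107 normalized counts in knockout pools and 61.3 and 48.7 in control pools. Col5a2 had 165 and 156 in knockout pools and 92.0 and 70.1 in control pools. Knockout pools lay above control pools for all 6, with a smallest log2 fold change of 0.89 for Ccbe1, and none of the 6 passed the test. Without control column 2 their log2 fold changes lay between 1.01 for Slc7a3 and 1.21 for Cartpt. Col5a2 and Slc7a3 passed with edgeR (adjusted p = 0.0464 for each), and Col5a2 also with DESeq2 (adjusted p = 0.0201). With robust empirical Bayes, Scn2a, Col5a2 and Slc7a3 passed (limma adjusted p = 0.0386, 0.0297 and 0.0324), and Aebp1, Cartpt and Ccbe1 did not. The 6 were picked for their likeness to Serpina7, so nothing is read from their direction or their calls. Thrsp came at rank 13 with a distance of 0.38, and Thrb, Thra, Slc16a10 and Dio1 at ranks 3220 to 7819. With 4 libraries the measure is dominated by the difference between the genotypes.

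**Figure D3:**
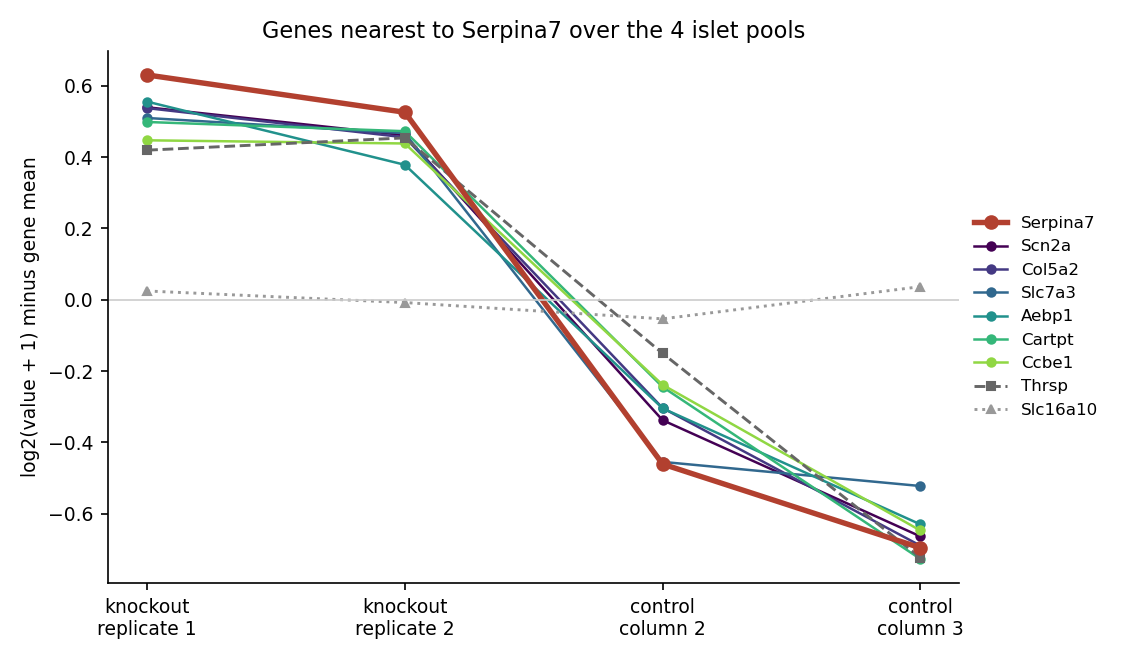
Log2(value + 1) of Serpina7, its 6 nearest genes, Thrsp and Slc16a10 in the 4 libraries, each minus the gene's own mean; lines only join the points of a gene. The nearest genes and Thrsp are above 0 in both knockout pools and below 0 in both control pools, and Slc16a10 stays close to 0 throughout.

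Markers of other cell types also differed between the pools, and their part in these results was not tested. In RNA from whole islets, fewer cells of a type and less RNA per cell cannot be told apart. All 7 stellate and fibroblast markers were higher in both knockout pools than in both control pools, with summed levels of 3319 and 2443 in knockout pools and 2048 and 1543 in control pools and a median log2 fold change of 0.81. The 4 libraries stood in the same order for Serpina7, and in the reverse order for the acinar sums below. A link of Serpina7 to either cell type was not tested. Of 6 alpha cell markers, 5 were higher in both knockout pools, with summed levels of 1665662 and 1382844 in knockout pools and 1173671 and 1370076 in control pools. Of 9 acinar markers, 8 were lower in both knockout pools, with sums of 6548 and 11405 in knockout pools and 13630 and 15306 in control pools. Of 7 beta cell markers, 2 were higher in both knockout pools, 2 were lower in both (Slc2a2 and Ucn3), and 3 overlapped. The 7 summed to 10824105 and 11129975 in knockout pools and 10790227 and 10280817 in control pools.

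Of 6 hepatocyte markers, 2 were higher in both knockout pools (Alb, given above, and Fgb), Apoa2 overlapped, and 3 were at or near 0. Fgb, a fibrinogen chain gene, had 22.9 and 11.5 normalized counts in knockout pools and 8.17 and 5.85 in control pools, and was not called. Apoa2, an apolipoprotein gene, had 134 and 155 in knockout pools and 144 and 146 in control pools. Ahsg and Cyp2e1 had 1 read in knockout replicate 1 and 0 elsewhere. Serpina1c is listed at 0 in every library, but it belongs to the alpha-1 antitrypsin cluster, whose counts are uncertain. The 6 summed to 233 and 257 in knockout pools and 216 and 223 in control pools. Of 6 adipocyte markers, Adipoq, Plin1, Lep and Cfd were at 0 in every library. Fabp4, which capillary endothelium also expresses, made up nearly all of the adipocyte sum, at 338 and 417 in knockout pools and 279 and 181 in control pools.

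**Figure D4:**
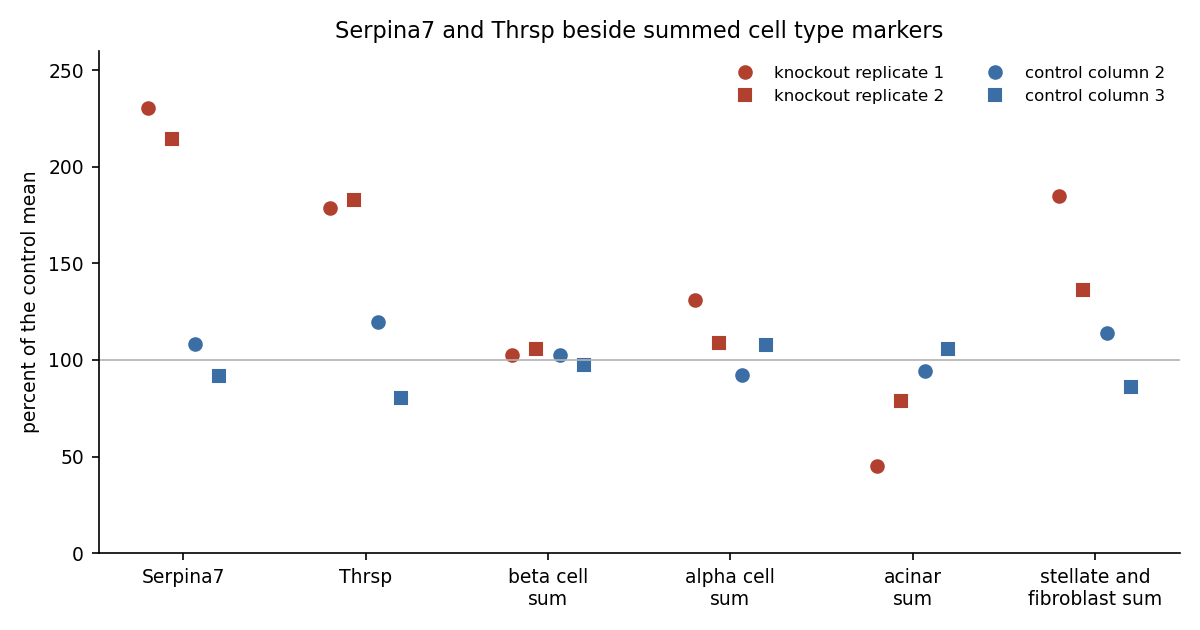
Serpina7, Thrsp and the summed normalized counts of beta cell, alpha cell, acinar and stellate and fibroblast markers in each library, as a percent of the control mean; knockout libraries in red, control libraries in blue, and a grey line at 100. Serpina7 lies at 230 and 214 in knockout pools, the stellate and fibroblast sum at 185 and 136, and the beta cell sum between 97.6 and 106 in all 4 libraries.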

How the data were processed

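Islet RNA was enriched for poly(A) transcripts and sequenced, per the labels' protocols. The submitters' processing notes list DESeq2 1.22.2, featureCounts 1.6.0, STAR 2.5.1b, CASAVA 1.4 and the build GRCm38, with no role for any; annotation and strand setting are not given in the sources used here. The deposited signal for each gene is its read count after the authors scaled libraries to a common size, as the file is named. The authors' table also holds the log2 ratio of control to knockout, a test score, p-values and adjusted p-values, of which only the row order is used here. Each column divided by its value of 1 read gave whole reads (within 0.01) for 100% of values. The control columns are numbered 2 and 3, unlike the labels, so they were matched to the group only. No column of another sample was found (0).

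A gene entered the test when 2 or more libraries reached 10. The test was limma 3.58.1 (R 4.3.3, two-sided, mean-variance trend) applied to log2(value + 1), with Benjamini-Hochberg adjustment over all tested genes at 0.05. The 95% intervals use the same fit (2 residual and 6.85 prior degrees of freedom). The smallest p of an exact permutation test on 2 pools each is 0.333. The pseudocount of 1 understates changes of low genes. With 47624630 to 51756221 reads per library, precision for highly read genes is limited by differences between pools. For genes with few reads, such as Dio2, the low number of reads limits it too. Replicates are separate samples in the labels, and their counts differed by more than sampling noise (chi-square over degrees of freedom 9.85 in knockout and 10.1 in control pools). Count models (edgeR 4.0.16, DESeq2 1.42.0) were alternatives. The fit was tested on simulated data. Coordinates and exon lengths are from GENCODE M21 on GRCm38, which holds 99.5% of gene identifiers; promoters of 6 of the 7 genes matched in the RefSeq table (GRCm38.p6).

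Members, lists and tests were chosen with earlier results of these data known. Named genes were the 7 genes, Ggcx, in each role every called gene and the 2 highest per kilobase, clade A serpins with a mean of at least 10, and the 6 genes nearest to Serpina7, with predicted and clone-named genes left out. Not every listed gene that is counted is reported here by name. Med1, Dio3, Rxrg, Tg, Nkx2-1, Me1, Gpd2, Klf9, Fasn, Acaca, Ppargc1a and Nr1d1 were added after their values were seen. Results were recomputed with a pseudocount of 0.5 or 5, a filter at 50 or none, 2 other scalings, no trend, robust empirical Bayes, each library left out, count models, and longest transcripts for length.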

Additional observations from a re-analysis of the deposited data

How the results depend on the processing

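Serpina7 was chosen on this comparison in these same libraries, so nothing is read from its calls here. It kept its direction and its call in 12 of 14 alternatives. It lost the call with no filter on low values (1.16, limma adjusted p = 0.0563) and without the mean-variance trend (1.16, limma adjusted p = 0.322), and ranged from 1.04 to 1.27 with 1 library left out. Genes called higher, 41 in the main test, numbered 1 with no filter, 19 with a filter at 50, 0 without the trend (1841 genes at an unadjusted p under 0.05), 85 with robust empirical Bayes, 120 with DESeq2, 49 and 80 without a knockout library and 50 and 178 without a control library. Genes called lower, 62 in the main test, numbered 1 with no filter, 32 with a filter at 50, 33 with a common upper quartile, 0 without the trend, 124 with robust empirical Bayes, 202 with DESeq2, 76 and 120 without a knockout library and 47 and 219 without a control library. Higher genes made up 39.8% of calls in the main test and 54.2% with a common upper quartile. The largest counts, 178 and 219, came without control column 2. Other pathway genes called, 0 in the main test, numbered 1 with robust empirical Bayes (Gpd2), 3 with DESeq2 and 0 to 1 with 1 library left out (Ppargc1a without knockout replicate 1, Sepsecs without control column 2); the cause was not tested.

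Several estimates changed sign when 1 library was left out, with log2 ranges of -0.025 to 0.10 for Thra, -0.037 to 0.14 for Thrb, -0.028 to 0.062 for Slc16a10, -0.11 to 0.15 for Slc7a5, -0.075 to 0.12 for Rxra (-0.043 without control column 3), -0.035 to 0.11 for Rxrb, -0.023 to 0.10 for Tbl1x, -0.19 to 0.030 for Mid1ip1, -0.033 to 0.10 for Klf9, -0.15 to 0.54 for Itgb3, -0.10 to 0.36 for Slc5a5, -0.59 to 0.34 for Iyd, -0.16 to 0.42 for Serpina1d and -0.25 to 1.92 for Serpina3n (0.84 in the main test, -0.25 without knockout replicate 1). Iyd was also -0.054 with edgeR and -0.059 with DESeq2. Nr1d1 lost its call in 6 alternatives and Ggcx in 3, each with the direction kept. No paired analysis was possible because the control columns carry numbers that do not match the replicate numbers of the labels. With 2 pools per genotype, genes read as little as Dio2 cannot be compared at this depth.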
